A study of Bos taurus with 90 samples.

Results

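The livers of cows fed alfalfa hay were compared with those of cows fed rice straw. The members were all liver samples labelled with either diet, 6 per diet, which made 12 of the 90 samples of the series. The series took rumen, duodenum, jejunum, liver and mammary gland from each of 18 mid-lactation Chinese Holstein dairy cows, 6 each on alfalfa hay, corn stover or rice straw, and its title names the use of low-quality forage and milk protein. Every sample was 1 small RNA library from about 100 mg of tissue, in liver a piece of the organ and in rumen, duodenum and jejunum the epithelium, with no treatment other than the diet, and cow age, batch and date are not given in the labels. Alfalfa hay is a protein-rich legume forage, and rice straw is a fibrous crop residue. The 6 corn stover livers entered the statistical fit to share the estimate of the spread, and they also counted in the filter that chose the miRNAs to test.

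MicroRNAs (miRNAs) are short RNAs cut from hairpin precursors. They guide Argonaute proteins to partly complementary sites in messenger RNAs, whose translation or stability they lower. In liver, miR-122 is the classic miRNA of hepatocytes, miR-192 and miR-194 are shared by hepatocytes and intestinal epithelium, and miR-146a and miR-146b are induced by NF-κB and restrain Toll-like receptor signalling.

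The files listed 330 miRNAs for liver, each with its counts per 1000000 reads mapped to miRNAs (CPM). The mapped reads recovered from the CPM values ranged from 4322473 to 6979560 in the alfalfa hay samples, with a median of 4740316.5, and from 2004942 to 7684530 in the rice straw samples, with a median of 4363443.5. At these depths 3 reads corresponded to 0.390 to 1.496 CPM. The difference in mapped reads between the diets was within the spread of the samples (exact permutation test, two-sided, p = 0.491, adjusted p = 0.998 over the 3 single values tested, where 924 splits allow no p under 0.00216). The tissue label held in all 12 samples by its defining marker, since bta-miR-122 was at 9230 CPM or more in each, and all 6 hepatocyte markers were listed. Pairs of samples across the diets correlated about as closely as pairs within a diet. Over the log2 values of the 326 miRNAs tested below, the median Pearson correlation across miRNAs was 0.986 between diets, 0.983 within alfalfa hay and 0.987 within rice straw. Without alfalfa hay replicate 2 the median was 0.9865 between diets and 0.9878 within alfalfa hay, beside 0.9869 within rice straw. Pairs share samples and miRNAs are not independent, so these correlations are descriptions.

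The library of alfalfa hay replicate 2 stood apart. In 11 miRNAs it was above every other liver sample of the 3 diets by at least 1 on the log2 scale, whereas the other 17 libraries had 0 to 3 such miRNAs each. The widest gap was that of bta-miR-205, a miRNA of stratified and glandular epithelium, which was at 1525 CPM in this library. In the other livers it was at 0 to 2.05 CPM in alfalfa hay, 0.198 to 1.36 CPM in rice straw and 6.24 to 13.0 CPM in corn stover. It exceeded 1 CPM in 10 of these 17, all 6 corn stover livers among them. Over the alfalfa hay and rice straw livers alone it would not have passed the filter for testing given below. Outside liver, bta-miR-205 averaged 33692 CPM in rumen and 3456 CPM in mammary gland. The other 10 were bta-miR-200c, bta-miR-378, bta-miR-375, bta-miR-429, bta-miR-147, bta-miR-141, bta-miR-1291, bta-miR-200a, bta-miR-378c and bta-miR-130b, 4 of them members of the miR-200 family of epithelial cells. Of the 11, 5 had their highest mean outside liver in rumen. Another 4 had it in mammary gland (bta-miR-200c, bta-miR-141, bta-miR-200a and bta-miR-1291) and 2 in duodenum (bta-miR-375 and bta-miR-130b). For bta-miR-1291 the mammary gland mean was 2.83 CPM, and no tissue mean reached the 10.5 CPM of this library. The rumen mean of bta-miR-375 was 30.2 CPM, below the 475 CPM of this library, and its duodenum mean was 6785 CPM. In the same library bta-miR-122 was at 11014 CPM, within the range of 9230 to 12721 CPM over the 12 samples. What set this library apart was not tested, and several of the medians and values that it moved are given below with and without it.

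**Figure D1:**
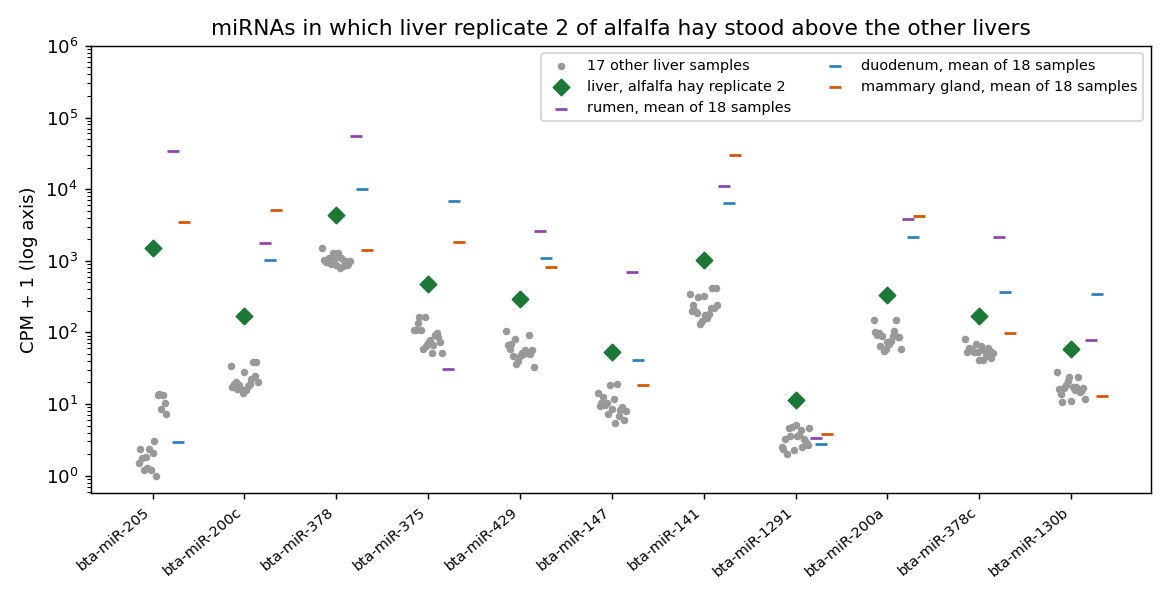
The vertical log axis gives CPM + 1 for the 11 miRNAs in which the liver library of alfalfa hay replicate 2 (green diamonds) exceeded all 17 other liver libraries (grey dots) by at least 1 on the log2 scale, and coloured bars give the means of the 18 samples of rumen, duodenum and mammary gland. For bta-miR-205 the diamond is at 1525 CPM, the grey dots reach 13.0 CPM, the rumen bar is at 33692 CPM and the mammary gland bar at 3456 CPM.

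No miRNA of the liver passed the test between alfalfa hay and rice straw. Of the 326 miRNAs tested, those whose CPM exceeded 1 in over 50% of the 18 liver samples, 0 (0.0%) had an adjusted p under 0.05 by limma on log2(CPM + 1), and the smallest adjusted p was 0.304. At an unadjusted p under 0.05 there were 10 (3.07%), of which 6 were higher and 4 lower in alfalfa hay. By edgeR on the recovered reads 0 passed as well, with 16 at an unadjusted p under 0.05, whereas DESeq2 on the same reads called 3 (0.92%), bta-miR-146a, bta-miR-146b and bta-miR-6524, all higher in alfalfa hay (adjusted p = 0.0252, 0.0343 and 0.0252), with 18 at an unadjusted p under 0.05. Without alfalfa hay replicate 1, limma called 2 (0.613%), bta-miR-146a and bta-miR-146b, both with an adjusted p of 0.0499. In 2 miRNAs (0.613%), bta-miR-146a and bta-miR-6524, the 6 values of one diet lay wholly outside those of the other.

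The differences were small on the whole. The median difference over the 326 miRNAs, taken as alfalfa hay minus rice straw on the log2(CPM + 1) scale, was -0.02, with 150 above 0 and 176 below, and 3 miRNAs had a difference larger than 1: bta-miR-205, bta-miR-146b and bta-miR-1246. Without alfalfa hay replicate 2 these differences were 0.16, 1.38 and 0.71. The 95% interval of the difference, set for each miRNA alone, lay within 2-fold in either direction for 270 miRNAs (82.8%) and within 1.5-fold for 136 (41.7%). Where the interval held both 0 and a 2-fold difference, a 2-fold difference could not be told from none with these samples. The precision was lower for rarer miRNAs: the median half-width of the interval was 0.41 for the 223 miRNAs with a mean of at least 10 CPM and 0.56 for the 103 below it.

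**Figure D2:**
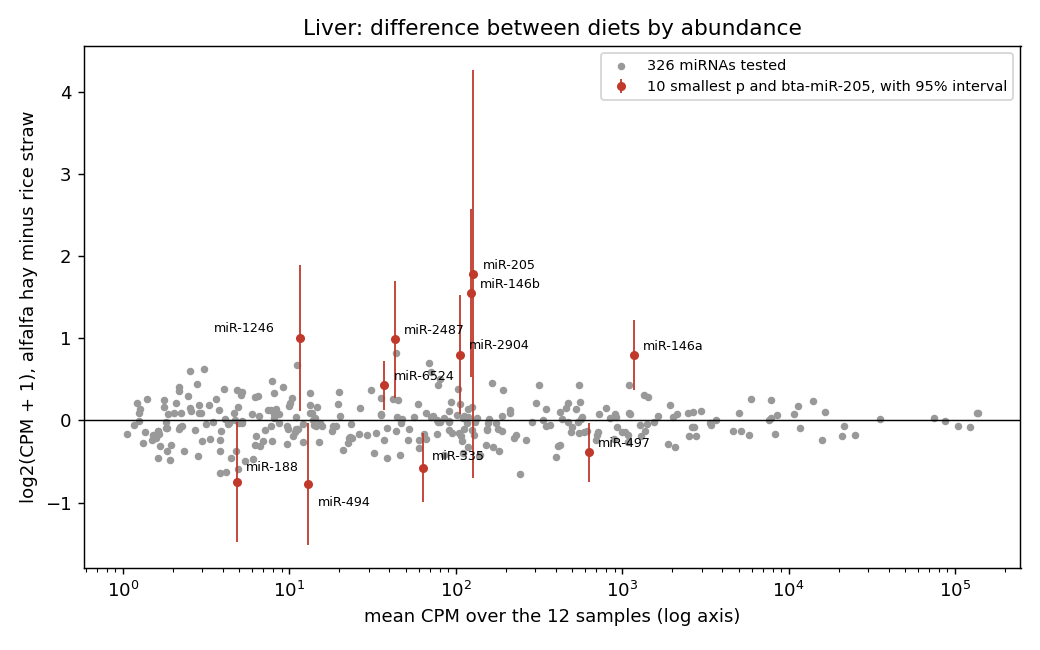
Each grey dot is 1 of the 326 miRNAs tested, with its mean CPM over the 12 samples on a log axis and the difference between alfalfa hay and rice straw on the log2(CPM + 1) scale; red dots with 95% interval bars are the 10 miRNAs with the smallest p and bta-miR-205. The cloud is centred near 0 (median -0.02), and the interval of bta-miR-205 (-0.71 to 4.27) spans 0.

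The 2 miR-146 genes had the smallest p values. They carry a near-identical mature sequence, so reads could have been shared between them in the authors' counting. The lowest, median and highest levels of bta-miR-146a were 1013, 1422 and 2049 CPM in alfalfa hay and 668, 858 and 1004 CPM in rice straw, an order kept for all levels that follow. All 6 alfalfa hay samples were above the highest rice straw sample, though the nearest pair, 1013 and 1004 CPM, almost touched. The difference was 0.80 (95% interval 0.37 to 1.22; limma adjusted p = 0.304), and it ranged from 0.70 to 0.90 when each of the 12 samples was left out in turn. For bta-miR-146b the levels were 36.8, 191 and 359 CPM in alfalfa hay and 42.7, 47.7 and 72.4 CPM in rice straw. Here 5 of the 6 alfalfa hay samples were above every rice straw sample, and replicate 1 was below all of them. The difference was 1.55 (0.52 to 2.57; limma adjusted p = 0.614), and it ranged from 1.30 to 1.95 when each of the 12 samples was left out in turn. The highest value was that without alfalfa hay replicate 1, which moved the limma adjusted p to 0.0499. The lowest was that without alfalfa hay replicate 4 (limma adjusted p = 0.914).

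In bulk tissue fewer cells of a type and less RNA per cell cannot be told apart. The leukocyte markers, bta-miR-142 (both arms), bta-miR-150, bta-miR-155 and bta-miR-223, were given beside miR-146 because leukocytes also hold miR-146a. Their summed level ran from 5648 to 10633 CPM in alfalfa hay and from 5355 to 7682 CPM in rice straw, and was at most 7896 CPM in alfalfa hay without replicate 2. Most of this sum was 1 miRNA, bta-miR-142-5p, with a mean of 5982 CPM over the 12 samples. None of the 5 tested leukocyte miRNAs was at 0 in any of the 12 samples, 3 had differences above 0 and 2 below, and their median difference was 0.05, or -0.00 without alfalfa hay replicate 2. The arms of bta-miR-142 differed by 0.26 (5p) and 0.21 (3p) and bta-miR-223 by 0.05, whereas bta-miR-150 differed by -0.45 and bta-miR-155 by -0.11. The part of these cells in the miR-146 values was not tested. Without alfalfa hay replicate 2, bta-miR-146a differed by 0.70 and bta-miR-146b by 1.38.

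The other miRNA whose groups did not overlap was bta-miR-6524. Its levels were 36.8, 41.0 and 50.9 CPM in alfalfa hay and 27.2, 32.6 and 35.8 CPM in rice straw, a difference of 0.42 (0.12 to 0.72; limma adjusted p = 0.614). The gap between the groups, from 35.8 to 36.8 CPM, was narrow beside the spread within either of them.

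For 3 further miRNAs with higher means in alfalfa hay, the difference leaned on single libraries. In the same order, bta-miR-2487 was at 29.3, 41.9 and 166 CPM in alfalfa hay and 18.6, 23.1 and 36.2 CPM in rice straw, with a difference of 0.98 (0.27 to 1.69; limma adjusted p = 0.614). The highest value, 166 CPM, was that of alfalfa hay replicate 1, and without it the difference was 0.64. Next, bta-miR-2904 was at 54.2, 106 and 342 CPM in alfalfa hay and 51.7, 60.7 and 96.8 CPM in rice straw, with a difference of 0.80 (0.07 to 1.53; limma adjusted p = 0.953). Replicate 1 was again the highest, and the difference was 0.49 without it. The low-abundance bta-miR-1246 was at 5.80, 11.0 and 38.7 CPM in alfalfa hay and 4.36, 6.38 and 9.48 CPM in rice straw, with a difference of 1.004 (0.11 to 1.89; limma adjusted p = 0.953). Here replicate 2 was the highest, and the difference without it was 0.71. In each of the 3 miRNAs, 3 of 6 alfalfa hay samples exceeded the highest rice straw sample and the others lay among the rice straw values.

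The 4 miRNAs with lower means in alfalfa hay overlapped between the diets in every case. The miRNA bta-miR-335, which lies in an intron of the imprinted gene MEST, was at 36.6, 48.2 and 65.6 CPM in alfalfa hay and 50.5, 66.2 and 119 CPM in rice straw, with a difference of -0.58 (-0.99 to -0.16; limma adjusted p = 0.614). In 4 of the 6 alfalfa hay samples it was below the lowest rice straw sample. In turn bta-miR-497, a miR-15/16 family member that targets cell cycle genes, was at 427, 526 and 648 CPM in alfalfa hay and 475, 724 and 891 CPM in rice straw, with a difference of -0.39 (-0.75 to -0.03; limma adjusted p = 0.953). Its neighbour within 10 kb, bta-miR-195, had a difference of 0.04 (-0.42 to 0.51), so the 2 miRNAs of this cluster were not displaced alike in these values, and the difference between them was not tested.

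The miRNA bta-miR-494, from the imprinted DLK1-DIO3 cluster, was at 3.73, 8.28 and 24.3 CPM in alfalfa hay and 8.46, 15.9 and 21.4 CPM in rice straw, with a difference of -0.77 (-1.51 to -0.04; limma adjusted p = 0.953). With 1 sample left out the difference ran from -0.57 without alfalfa hay replicate 2 to -1.06 without replicate 1, which held the highest value, and edgeR gave -0.58. The 11 tested miRNAs within 10 kb of it differed by -0.40 to 0.19. The rarest of the 10, bta-miR-188, was at 0.856, 3.10 and 6.94 CPM in alfalfa hay and 2.45, 5.64 and 10.2 CPM in rice straw, with a difference of -0.75 (-1.48 to -0.02; limma adjusted p = 0.953). At these levels the lowest sample was near the value of a few reads, and the difference was -0.40 with a pseudocount of 5 CPM and -0.97 with 0.1 CPM. Its neighbours bta-miR-502a and bta-miR-532 had differences of -0.09 and 0.05.

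**Figure D3:**
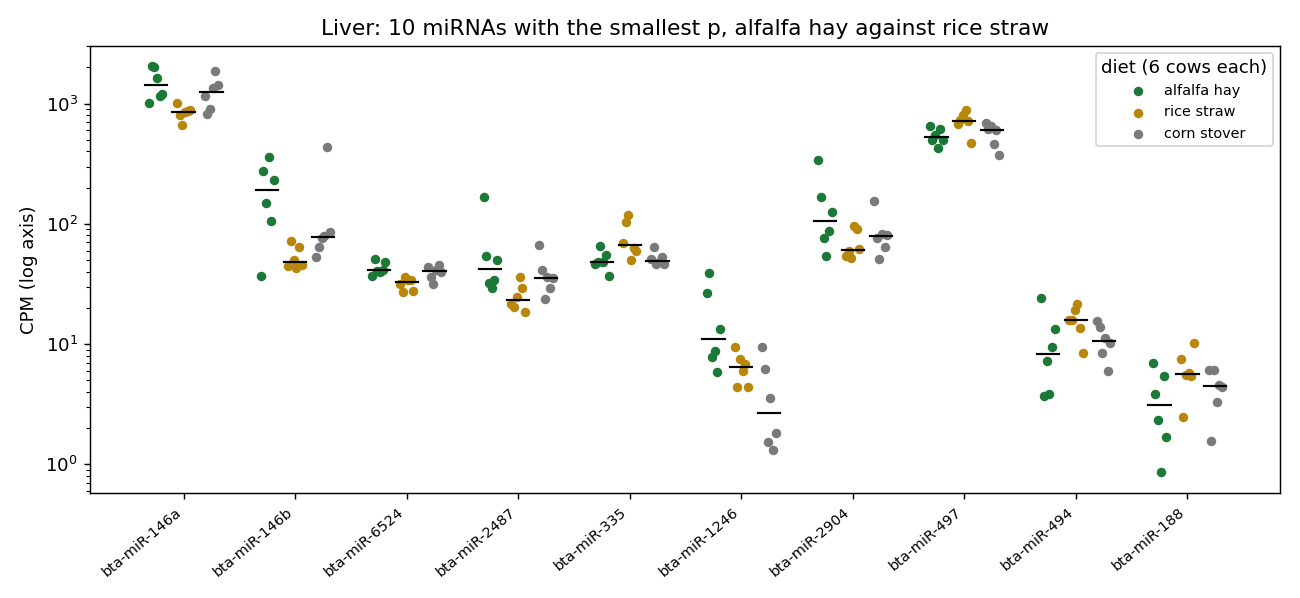
CPM on a log axis in each liver sample for the 10 miRNAs with the smallest p, with 6 dots per diet and a black bar at the median. Alfalfa hay (green) and rice straw (gold) are wholly apart in bta-miR-146a and bta-miR-6524 and overlap in the other 8.

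The corn stover livers gave another level for the same miRNAs. In bta-miR-146a the corn stover samples ran from 823 to 1886 CPM with a median of 1249, and 4 of 6 were above the highest rice straw sample. In bta-miR-146b they ran from 52.6 to 439 CPM with a median of 77.7. The corn stover median lay between those of the other diets in 9 of the 10 miRNAs, against 109 of all 326 (33.4%). The 10 were picked on the gap between alfalfa hay and rice straw, so this count is no support for an order of the diets.

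The miRNAs that made up most of the liver library differed little. The 10 most abundant miRNAs took 76.2% ± 1.7 of the mapped reads in alfalfa hay and 76.4% ± 1.3 in rice straw (SD, n = 6 each; exact permutation test, two-sided, p = 0.758, adjusted p = 0.998). The first, bta-miR-192, was at 126774, 136402 and 165540.3 CPM in alfalfa hay and 113678, 124861 and 188688 CPM in rice straw, a difference of 0.09 (-0.15 to 0.32). It was 0.19 without rice straw replicate 6, which held the highest value, and 0.04 at the least with another sample left out. The second, bta-miR-22-3p, was at 101375, 145490.1 and 175255 CPM in alfalfa hay and 93106, 132643 and 164543 CPM in rice straw, a difference of 0.09 (-0.25 to 0.42). For both the ranges of the diets overlapped over most of their length. The miRNA bta-miR-143, which is most abundant in smooth muscle and stellate cells, was at 81811, 114457 and 147453 CPM in alfalfa hay and 85228, 132128 and 177119 CPM in rice straw, a difference of -0.08 (-0.46 to 0.31). The hepatocyte marker bta-miR-148a, which acts on LDL receptor messages in hepatocytes, differed by -0.06 (-0.28 to 0.16).

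In the other 6 of these, bta-miR-30a-5p, bta-miR-26a, bta-miR-27b, bta-let-7f, bta-miR-126-5p and bta-miR-101, the differences ran from -0.19 to 0.02. The intervals of all 10 stayed within 1.5-fold, the lowest bound being that of bta-miR-101 (-0.52 to 0.14), and every adjusted p by limma was at least 0.953. The sign of such small values carried little: it turned in 6 of the 10 under another scaling or test or with 1 sample left out.

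No hepatocyte marker passed the test between the diets. The foremost of them, bta-miR-122, was at 11014, 12139 and 12340.1 CPM in alfalfa hay and 9230.0, 10609 and 12721 CPM in rice straw. Its difference was 0.17 (-0.02 to 0.36; limma adjusted p = 0.953), with an interval that left no room for a 1.5-fold difference. The intestinal and hepatic bta-miR-194 differed by 0.00 (-0.23 to 0.23), bta-miR-885 by -0.15 (-0.65 to 0.35) and bta-miR-483, which lies within IGF2, by 0.33 (-0.11 to 0.78). Over the 6 hepatocyte markers 4 differences were above 0 and 2 below, 0 were called, and the median was 0.05, against -0.02 over all 326.

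Markers of the other cells that a piece of liver holds were read in the same way. The red blood cell miRNAs, bta-miR-144, bta-miR-451 and bta-miR-486, summed to 3762 ± 1921 CPM in alfalfa hay and 3767 ± 1392 CPM in rice straw (SD, n = 6 each; exact permutation test, two-sided, p = 0.998, adjusted p = 0.998). The 3 differences were all below 0, from -0.42 to -0.08, with a median of -0.14 that was -0.44 without alfalfa hay replicate 2, and with sums of 1553 to 6580 CPM against 2498 to 5646 CPM. The 6 stellate and smooth muscle miRNAs split 3 above and 3 below 0, with a median of -0.02 that was -0.10 without alfalfa hay replicate 2. Both arms of the endothelial miR-126 were below 0, the 3p arm at -0.18 and the 5p arm at -0.06, and without that library at -0.29 (limma adjusted p = 0.826) and -0.15. Of the 3 striated muscle miRNAs tested, 2 were above 0 and 1 below, and bta-miR-206 and bta-miR-208b are not listed in the liver files. The 5 bile duct and epithelial miRNAs of the miR-200 family split 1 above and 4 below 0, with a median of -0.16 that became -0.54 without alfalfa hay replicate 2. All 5 were below 0 without it. It had been singled out for high values in, among others, bta-miR-200c, bta-miR-141, bta-miR-200a and bta-miR-429. The downward direction of these shifts was thus fixed in advance. Without it bta-miR-200c moved from 0.36 to -0.18, bta-miR-141 from -0.02 to -0.44 and bta-miR-200b from -0.20 to -0.54. In the same way bta-miR-200a moved from -0.16 to -0.55 and bta-miR-429 from -0.17 to -0.62. Their summed level was 247 to 1896 CPM in alfalfa hay, at most 483 CPM without that library, and 325 to 660 CPM in rice straw. None of these markers passed the test.

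Groups of miRNAs tied to the metabolism that a diet could reach were described by their counts, and 0 members were called in each. Of 20 tested miRNAs of lipid and cholesterol metabolism, which include bta-miR-122, bta-miR-27b and bta-miR-148a, 12 had differences above 0 and 8 below, with a median of 0.04, or -0.03 without alfalfa hay replicate 2. The widest of them, bta-miR-205 at 1.78, was 0.16 without that library. Of 16 in insulin and glucose metabolism 6 were above and 10 below 0, with a median of -0.05, or -0.10 without it. Of 13 tied to amino acids and nutrient stress 8 were above and 5 below, with a median of 0.03, or -0.09 without it. In the last group bta-miR-34a, a p53 target, was at 27.3, 51.3 and 94.3 CPM in alfalfa hay and 18.3, 23.2 and 72.3 CPM in rice straw, a difference of 0.82 (-0.03 to 1.67; limma adjusted p = 0.953). The 18 miRNAs of fibrosis and inflammation split 11 above and 7 below 0, with a median of 0.04, or -0.04 without it, beside -0.06 for all 326 without it. At an unadjusted p under 0.05 there were 2 of the 18, bta-miR-146a and bta-miR-146b, beside 3.07% of all 326.

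The medians of the sequence families ran from -0.21 to 0.30, and 0 members were called in any of them. The let-7 family had 4 of 10 members above 0 (median -0.03), the miR-30 family 2 of 7 (-0.12), the miR-29 family 0 of 4 (-0.10), the miR-15/16 family 1 of 6 (-0.09), the miR-17-92 and paralogous clusters 7 of 13 (0.02), the miR-181 family 1 of 4 (-0.21), miR-193 and miR-365 together 4 of 5 (0.09), and the ruminant miR-2284 and miR-2285 family 11 of 18 (0.01). Without alfalfa hay replicate 2 the median of the miR-17-92 clusters was -0.07, that of the miR-30 family -0.06, that of the miR-29 family -0.15 and that of the miR-15/16 family -0.14. The members of a family can share reads, so their values are not separate measurements. The miR-378 family, which lies in the PPARGC1B locus through bta-miR-378, had 3 of 3 above 0 with a median of 0.30, but the median was -0.04 without alfalfa hay replicate 2.

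Clusters of neighbouring genes were described in the same way, beside the 176 of all 326 miRNAs that were below 0. Of the 33 tested miRNAs of the DLK1-DIO3 cluster, a large imprinted cluster, 26 were below 0 and 7 above, with a median of -0.19. Without alfalfa hay replicate 2 the median was -0.05, against -0.06 for all 326. All 5 tested miRNAs of the miR-424 and miR-450 cluster were below 0, with a median of -0.42, and the median was -0.39 without that library. Within it bta-miR-424-3p was at 1.72, 2.46 and 3.92 CPM in alfalfa hay and 1.17, 4.04 and 15.5 CPM in rice straw, a difference of -0.63 (-1.37 to 0.11), and the rice straw range enclosed that of alfalfa hay. Members of a cluster share a transcript and are not replicates, and none passed the test.

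**Figure D4:**
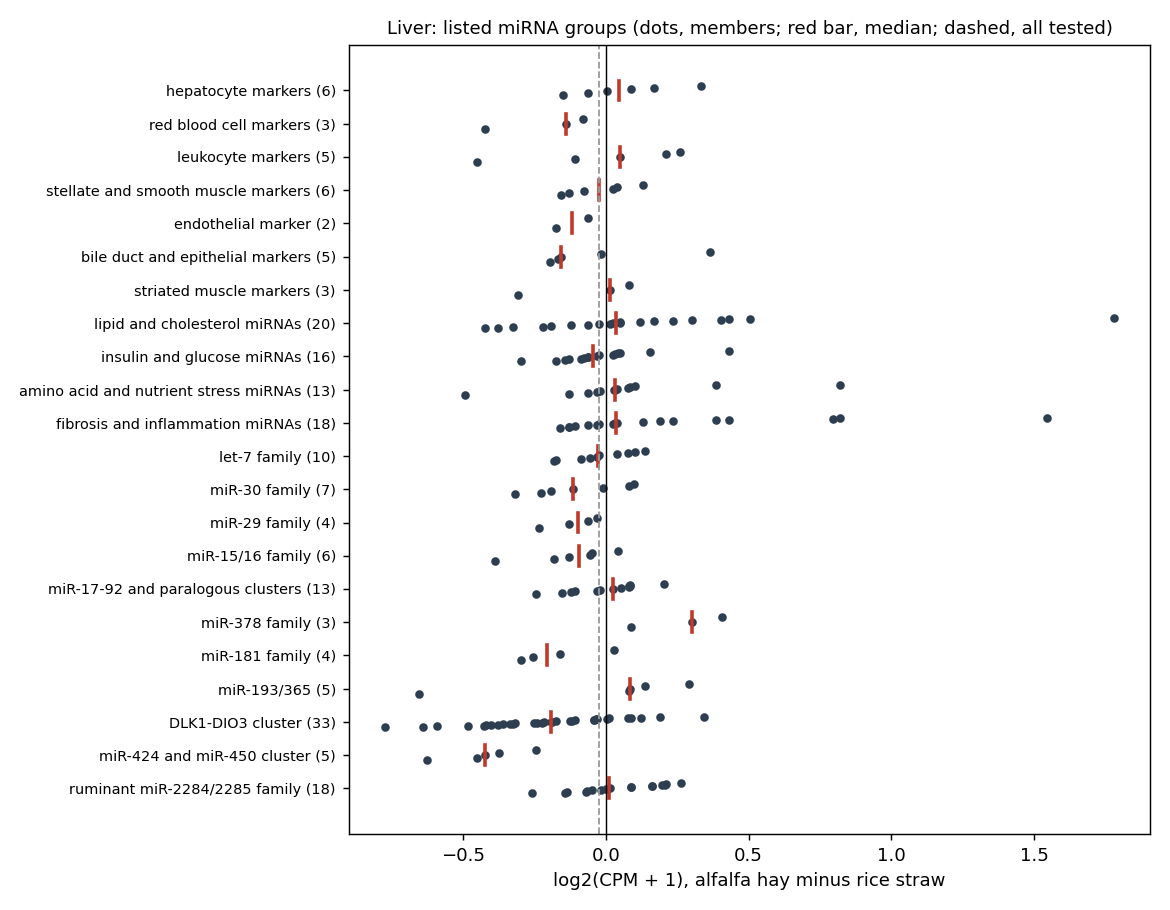
Each dot is a miRNA placed by its difference between alfalfa hay and rice straw on the log2(CPM + 1) scale, in rows for the listed groups with the number tested in brackets; red bars mark group medians and the dashed line the median of all 326. Most medians lie near the dashed line, and the lowest is that of the miR-424 and miR-450 cluster at -0.42.

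The balance between the arms of a precursor was a measure little touched by the scaling of a library, except where an arm was near the 1 CPM added to each. Both arms had a mean of at least 10 CPM in 17 precursors, of which 0 were called when tested alone. Of 30 precursors with both arms listed, 0 (0.0%) differed between the diets in the log2 ratio of 5p to 3p by limma, and 0 had an unadjusted p under 0.05. The smallest p was that of miR-193a, where the log2 ratio was -3.55 ± 0.81 in alfalfa hay and -4.30 ± 0.62 in rice straw (SD, n = 6 each). Its difference was 0.74 (-0.03 to 1.51; limma adjusted p = 0.737). The 3p arm of miR-193a was the more abundant in every sample, and 24 of the 30 precursors had the same leading arm in all 12 samples. For 23 of the 30 the interval of the difference lay within 2-fold.

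The same diets were compared in the other 4 tissues of the same cows, to see where liver departed from them. In a joint limma fit of 60 samples and the 289 miRNAs listed in all 5 tissues, with the replicate number within a diet taken as the cow and kept as a block, 0 (0.0%) were called in liver, 16 (5.54%) in rumen, 0 (0.0%) in duodenum, 0 (0.0%) in jejunum and 50 (17.3%) in mammary gland. At an unadjusted p under 0.05 there were 8 in liver, 52 in rumen, 4 in duodenum, 1 in jejunum and 85 in mammary gland. The test of the diet difference in liver against its mean in the other tissues called 1 miRNA (0.346%), bta-miR-146b, with a value of 1.79 (0.90 to 2.68; adjusted p = 0.0499), and 8 were at an unadjusted p under 0.05. This call lay at the threshold and was lost under 7 of 9 alternatives, among them the fit without the block (adjusted p = 0.0533), upper-quartile (0.0833) and TMM scaling (0.0906), and pseudocounts of 0.1 (0.0515) and 5 CPM (0.0618).

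The alfalfa hay minus rice straw difference of bta-miR-146b was 1.55 in liver, -0.58 in rumen, 0.42 in duodenum, 0.17 in jejunum and -0.99 in mammary gland. Liver, at 1.55, was the largest of the differences that entered the tested value of 1.79. The lower alfalfa hay means in rumen and mammary gland raised that value, and the higher ones in duodenum and jejunum lowered it. The call was also lost when rumen or mammary gland was left out (limma adjusted p = 0.373 without rumen and 0.119 without mammary gland). As the call lay at the threshold, its loss does not show how much either tissue added. The levels differed as well: in rice straw the median of bta-miR-146b was 47.7 CPM in liver, 512 CPM in rumen, 349 CPM in duodenum, 403 CPM in jejunum and 515 CPM in mammary gland. Its paralogue bta-miR-146a differed by 0.80 in liver, -0.46 in rumen, 0.40 in duodenum, 0.11 in jejunum and -0.02 in mammary gland, and was not called. For bta-miR-1246 and bta-miR-2487 the liver minus other tissue values were 1.43 and 1.18, with adjusted p of 0.678 and 0.993 by limma.

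**Figure D5:**
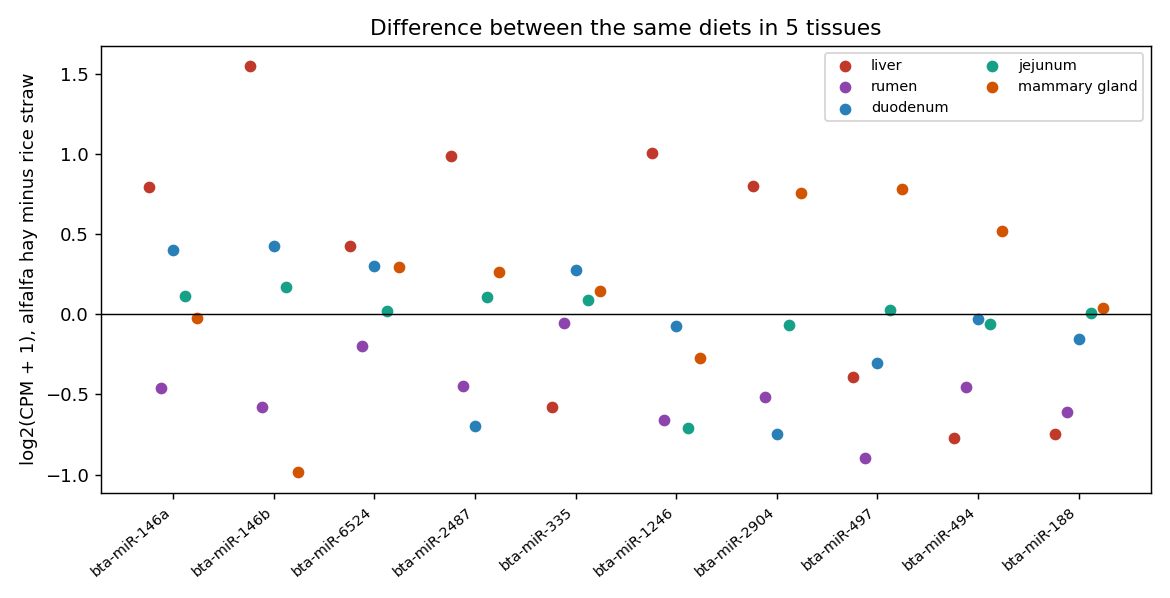
The difference between alfalfa hay and rice straw on the log2(CPM + 1) scale in each of 5 tissues, for the 10 miRNAs chosen for the smallest p in liver. Liver (red) is the highest of the tissues in bta-miR-146a and bta-miR-146b, where the mammary gland value of the latter is -0.99, and the 10 were chosen on the liver values.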

How the data were processed

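Small RNA libraries from 12 liver samples, 6 cows on alfalfa hay and 6 on rice straw, were compared, with the 6 corn stover livers in the fit and 48 samples of the other 4 tissues for comparison. Diet, tissue and replicate were taken from the labels, and the cows were the replicates. Per the study's methods, the authors removed low-quality reads with CASAVA 1.8, trimmed adaptors and aligned the reads to bovine miRNA precursors of miRBase with sRNAbench, allowing mismatches and several mappings per read, so near-identical family members can share reads. The genome build is not given in the sources used here. The deposited values are counts per 1000000 reads mapped to annotated miRNAs (CPM), although the paper's data records call them raw counts; they were not whole numbers. Every liver value was a whole multiple of 1 read's worth of CPM within a tolerance of 0.05 reads (100% of values), but the size of that step was itself estimated from the values of each sample, so mapped reads are inferred values. The recovered reads served the alternatives with edgeR 4.0.16 and DESeq2 1.42.0. No 2 liver samples held the same values, and at least 329 of 330 miRNAs differed between any pair.

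A miRNA was tested when its CPM exceeded 1 in more than 50% of the 18 liver samples. The test was limma 3.58.1 in R 4.3.3 (lmFit, a contrast and eBayes, trend included), two-sided, on log2(CPM + 1) with Benjamini-Hochberg adjustment over the 326 miRNAs tested and a threshold of 0.05. A fold change on this scale understates the change of low miRNAs. Arm ratios used log2 of (CPM + 1) over (CPM + 1). The comparison of tissues kept the cow as a random block, where the same diet and number in the titles were taken as 1 cow; no label states this, and the estimated correlation was 0.0077. The test scripts were checked on simulated data with known changes. Single values were compared by exact permutation, with all splits enumerated in Python 3.11.15 with numpy 2.4.6. Alternatives changed the scaling, pseudocount, filter, samples, tool and block, and left out each sample in turn.

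Named were miRNAs past the threshold or, where fewer than 10 passed, the 10 with the smallest p, the 10 most abundant, and markers of cell types. Added after their values were seen were bta-miR-34a, bta-miR-424-3p and neighbours of named miRNAs. The same holds for bta-miR-205 and the other miRNAs that set alfalfa hay replicate 2 apart, where they are not markers. The members and lists were chosen with earlier results of these data known. Of the 330 names, 327 matched the RefSeq gene table of ARS-UCD2.0, which was used only for neighbouring genes; no miRNA sequence was used here. Intervals cover the spread between cows. Samples with the same number in the 2 diets come from different cows, and the correlation of their deviations ran from -0.26 to 0.19, with 1 of 6 over 0.1, so the numbers were not taken to pair them.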

Additional observations from a re-analysis of the deposited data

Results flagged for a closer look

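Values were flagged where 1 of the 6 samples of a diet stood far from the others, by Dixon's test at the 95% level, or where a diet difference in liver departed from that in the other tissues. Of 100 groups of 6 values examined, 21 were flagged. Chance flags about 1 in 20 groups of normally distributed values, but the test was run on untransformed CPM, where that rate need not hold. Several flags come from the same library and are not separate events.

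Alfalfa hay replicate 2 gave 9 of the flags, each as the highest of its group. They were bta-miR-205 at 1525 CPM, where the next sample had 2.05 CPM, bta-miR-200a at 334 CPM, bta-miR-200b at 65.2 CPM, bta-miR-200c at 166 CPM, bta-miR-141 at 1038 CPM, bta-miR-429 at 293 CPM, bta-miR-451 at 2471 CPM, bta-miR-145 at 842 CPM and bta-miR-126-3p at 7993 CPM. The first 6 are epithelial miRNAs, and the last 3 are markers of red blood cells, smooth muscle and endothelium. Of the 9, bta-miR-205 was named after its values were seen. Alfalfa hay replicate 1 was the highest of its group in bta-miR-2487 at 166 CPM, in the leukocyte miRNAs bta-miR-150 at 654 CPM and bta-miR-223 at 272 CPM, in bta-miR-885 at 160.1 CPM and in bta-miR-133a at 248 CPM.

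In rice straw, replicate 6 was the highest in bta-miR-192 at 188688 CPM, bta-miR-126-5p at 31163 CPM and bta-miR-145 at 1016 CPM. Rice straw replicate 1 was the highest in bta-miR-155 at 179 CPM and bta-miR-200c at 32.4 CPM. Rice straw replicate 2 was the highest in bta-miR-199b at 414 CPM and the lowest in bta-miR-101 at 17389.9 CPM.

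The diet difference of bta-miR-146b in liver was 1.79 above its mean in the other 4 tissues on the log2(CPM + 1) scale, by a limma test of the difference itself (adjusted p = 0.0499), a call that was lost under 7 of 9 alternatives.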

How the results depend on the processing

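The count of 0 miRNAs called in liver held under every scaling, pseudocount, filter and limma setting tried and by edgeR (smallest adjusted p 0.0875 to 0.497), but DESeq2 called 3, and leaving out 1 sample at a time gave 0 to 2, the 2 without alfalfa hay replicate 1. The count at an unadjusted p under 0.05 ran from 7 without rice straw replicate 3 to 32 without rice straw replicate 6. The replicate block, kept although the numbers do not pair the cows, gave 0 calls, with 11 miRNAs at an unadjusted p under 0.05 and a smallest adjusted p of 0.548; for the arm ratios it gave 0 calls too. The arm ratios gave 0 calls under all alternatives. The single tissue difference, bta-miR-146b, was lost (0 called) without the cow as a block, with upper-quartile or TMM scaling, with a pseudocount of 0.1 or 5 CPM, and without rumen or mammary gland, with values of 1.54 to 1.85 and adjusted p of 0.0515 to 0.373; it was kept without duodenum or jejunum. The causes were not tested.

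Small values turned in sign. bta-miR-30a-5p was 0.019 with upper-quartile scaling, 0.0028 with TMM scaling and 0.042 by edgeR. With 1 sample left out, values ran from -0.057 to 0.039 for bta-miR-30a-5p, from -0.0090 to 0.17 for bta-miR-22-3p, from -0.18 to 0.030 for bta-miR-143, from -0.023 to 0.061 for bta-miR-26a, from -0.035 to 0.080 for bta-miR-27b and from -0.15 to 0.044 for bta-miR-126-5p. The share of the 10 most abundant miRNAs differed by 0.020 percentage points as medians and by -0.64 to 0.30 with 1 sample left out, and the red blood cell sum by 390 CPM as medians and by -569 to 437 CPM with 1 sample left out. Depth limits the rarest miRNAs, since 3 reads are worth up to 1.496 CPM in the shallowest of the 12 libraries.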
